A study of Mus musculus with 31 samples.

Results

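The nuclear-encoded subunits of the mitochondrial respiratory chain were followed across the livers of 4 inbred mouse strains, with and without PF-04287881, a candidate antibiotic. Members were chosen by symbol alone: genes named Nduf followed by A, B, C, S or V and a number, Sdha to Sdhd, Uqcr genes, and Cox4 to Cox8 genes with a letter. This gave 63 of the 18147 genes that the array annotation names with a single symbol, each represented by its brightest probe set, the group of probes that reads 1 transcript. They comprised 34 genes of complex I, 4 of complex II, 8 of complex III and 17 of complex IV. Of these, 59 passed a filter for brightness, a value above 6.49 log2 units on at least 3 arrays, and were tested. The 4 dim members were Cox4i2, Cox7b2, Cox7c and Ndufb4. Among the 59 tested members, 56 were above that level on every array, whereas Cox7a1 passed only through treated SM/J arrays, Cox8b only through WSB/EiJ vehicle arrays and Cox6b2 almost only through MA/MyJ arrays.

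The 31 arrays measured messenger RNA of the left liver lobe of female mice aged 8 to 10 weeks. The strains were WSB/EiJ, SM/J, NZW/LacJ and MA/MyJ, and the labels name no transgene or targeted allele. Treated mice received PF-04287881 at 600 mg/kg by gavage on each of 7 days, control mice received sterile water as vehicle, and all were killed 24 h after the last dose. Each of the 8 groups held 4 animals except treated WSB/EiJ with 3, because 1 animal died of a gavage error.

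The respiratory chain passes electrons from NADH and succinate to oxygen and pumps protons across the inner mitochondrial membrane. Complex I oxidises NADH, complex II oxidises succinate, complex III passes electrons from ubiquinol to cytochrome c, and complex IV hands them to oxygen. A few core subunits of complexes I, III and IV are made from mitochondrial DNA inside the organelle, while the genes followed here are transcribed in the nucleus and their proteins are imported. Several complex IV subunits exist as isoforms, with Cox6a2, Cox7a1 and Cox8b typical of heart and skeletal muscle and Cox6b2 and Cox8c of testis. Ndufa4 and Ndufa4l2 were counted with complex I by their names, although NDUFA4 protein is associated with complex IV.

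Values are log2 levels made by RMA, and a difference of 1 is a factor of 2. Errors written ± are standard errors from limma, and a member was called when its adjusted p, by limma with Benjamini-Hochberg adjustment over all 12890 genes tested, was under 0.05. Probe sets that read differently in 1 strain placed the array labelled WSB/EiJ treated animal 3 at -0.0116 on a WSB/EiJ scale (1 for that strain and 0 for the rest) and at 1.01 on the matching NZW/LacJ scale. WSB/EiJ vehicle animal 4 stood at 0.646 on its own scale, against 1.01 to 1.04 for the other vehicle animals of that strain. It was kept in the WSB/EiJ vehicle group. Results that rest on the WSB/EiJ treated group are given with all arrays and without the array labelled treated animal 3, the doubtful array. Leaving it out leaves 2 treated WSB/EiJ animals. The difference between 3' and 5' probe sets of 3 control transcripts, a measure of RNA integrity, was larger after treatment. Its mean per array ran from 1.41 to 2.20 in vehicle and from 1.56 to 2.52 in treated animals. The groups overlapped in SM/J and, through the array labelled treated animal 3 alone, at 1.58, in WSB/EiJ. Treated WSB/EiJ animals 1 and 2 lay above every vehicle animal of the strain. Without the doubtful array, integrity and treatment therefore changed together in WSB/EiJ. In MA/MyJ and NZW/LacJ they did so with all arrays. The mean difference was 1.51 to 1.66 in MA/MyJ vehicle and 1.83 to 2.02 after treatment. In NZW/LacJ it was 1.41 to 1.45 and 1.73 to 2.14. Skeletal muscle transcripts were raised in WSB/EiJ vehicle animals 1 and 2, with Ckm at 9.41 and 8.78 against 6.05 to 6.54 on the other 29 arrays. Across 11 hepatocyte markers the mean level lay between 14.1 and 14.4 on every array. Of 15 Kupffer cell and macrophage markers, 11 were called higher after treatment in MA/MyJ, 1 in SM/J, 10 in WSB/EiJ and 6 in NZW/LacJ with all arrays, and none lower, against 4.14%, 2.59%, 19.3% and 21.5% of all genes called in these strains in that order. The mean level of these markers was 7.66 to 8.23 in WSB/EiJ vehicle and 9.10 to 9.19 after treatment. Their part in the results that follow was not tested. In whole liver a lower level can mean fewer cells of a type or less RNA per cell, and the arrays cannot tell these apart.

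In complex I, the NADH dehydrogenase, few members were called in SM/J, NZW/LacJ or MA/MyJ, and those called in WSB/EiJ were lower. Without the doubtful array, 13 of the 33 tested complex I members fell in treated WSB/EiJ livers and none rose, with a median change of -0.17 against 0.02 over all genes tested. With all 31 arrays, 5 fell and none rose, with a median of -0.05. These counts take their spread from all strains. Fitted on the WSB/EiJ groups alone, 0 of 59 members were called with all arrays and 1, Ndufs7, without the doubtful array. The share of all genes called in these smaller fits was not counted. Whether the drop is particular to the members therefore cannot be told. Over all 4 complexes, 16 of 59 members were called in WSB/EiJ without that array and 7 with it, against 32.4% and 19.3% of all genes tested. Without the doubtful array, leaving out a further array moved the 16 to 7 (treated animal 2), 9 (vehicle animal 1), 10 (treated animal 1) or 26 (vehicle animal 3). Counting falls alone, the 16 and the 7 stand against 18.6% and 12.4% of all genes tested. In no other strain did more than 3 complex I members pass.

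Promoter windows are shown for 3 complex I members that fell, Ndufs7, Ndufa8 and Ndufc1, with any searched motif in capitals. They are RefSeq sequences of GRCm38.p6, the reference mouse assembly and not 1 of the 4 strains, from 250 bases before to 50 after the start of the gene, written 5' to 3' along the gene's strand. The Ndufs7 window is chr10:80249199-80249498 on the plus strand, that of Ndufa8 is chr2:36049289-36049588 on the minus strand, and that of Ndufc1 is chr3:51408906-51409205 on the minus strand.

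Ndufs7: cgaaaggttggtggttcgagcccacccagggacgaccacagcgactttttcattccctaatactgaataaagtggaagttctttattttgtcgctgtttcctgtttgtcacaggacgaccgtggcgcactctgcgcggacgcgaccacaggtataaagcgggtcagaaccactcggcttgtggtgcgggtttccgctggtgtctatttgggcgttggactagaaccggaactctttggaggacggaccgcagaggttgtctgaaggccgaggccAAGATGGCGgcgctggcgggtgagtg

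Ndufa8: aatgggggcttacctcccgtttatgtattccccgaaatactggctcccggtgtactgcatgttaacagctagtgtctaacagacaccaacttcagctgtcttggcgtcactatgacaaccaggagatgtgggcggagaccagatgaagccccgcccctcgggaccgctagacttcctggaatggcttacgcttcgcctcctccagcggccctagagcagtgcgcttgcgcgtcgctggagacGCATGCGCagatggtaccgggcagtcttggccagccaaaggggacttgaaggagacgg

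Ndufc1: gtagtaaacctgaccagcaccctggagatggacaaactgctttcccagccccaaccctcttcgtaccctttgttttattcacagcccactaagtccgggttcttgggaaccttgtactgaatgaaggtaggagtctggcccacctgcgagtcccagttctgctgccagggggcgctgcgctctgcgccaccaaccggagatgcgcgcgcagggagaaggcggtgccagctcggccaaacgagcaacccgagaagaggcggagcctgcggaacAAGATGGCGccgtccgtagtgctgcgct

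The capitals mark AAGATGGCG, a YY1 site, in Ndufs7 and Ndufc1, and GCATGCGC, the core of the NRF1 site, in Ndufa8. Of the 63 members, 50 had a promoter entry, with 52 windows in all. On both strands, the NRF1 core was in 11.5% of the members' windows and 2.71% of all 32851 windows of this length. CCGGAAG, an ETS family site, was in 21.2% and 8.86%. AAGATGGCG was in 7.69% and 1.40%, and TCAAGGTCA, an ERR alpha site, in 1.92% and 0.423%. No motif contains another, and a match describes the letters of the reference genome only. Members without an entry were Cox4i1, Cox4i2, Cox6a2, Cox6c, Cox8c, Ndufa2, Ndufa4l2, Ndufb9, Ndufs1, Sdhc, Uqcrb, Uqcrc2 and Uqcrq.

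Ndufs7, a core subunit that carries an iron-sulphur cluster on the path to ubiquinone, had the largest fall in complex I. In WSB/EiJ vehicle livers it read 12.43, 12.38, 12.38 and 12.43, and in treated animals 1 and 2 it read 11.85 and 11.85, while the array labelled treated animal 3 read 12.38. Both accepted treated animals were below every vehicle animal of the strain. The fall was -0.56 ± 0.07 (adjusted p = 2.89e-06, limma, n = 4 and 2) without the doubtful array and -0.38 ± 0.09 (adjusted p = 0.00406, limma) with it, and the latter call was lost without treated animal 1. On the WSB/EiJ groups alone its adjusted p by limma was 0.027 without the doubtful array and 0.289 with it. In SM/J the change was -0.12, in NZW/LacJ -0.04 and in MA/MyJ 0.07, and none was called.

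Ndufa8, an accessory subunit of the membrane arm, read 12.45, 12.28, 12.25 and 12.40 in WSB/EiJ vehicle and 11.96 and 11.86 in treated animals 1 and 2. The third treated array read 12.39. Its change was -0.44 ± 0.08 without that array (adjusted p = 0.000185, limma). Treated MA/MyJ animals, at 12.48 to 12.65, stood above the vehicle range of 12.32 to 12.41, although the difference of 0.18 ± 0.09 was not called in limma.

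Ndufs1, the largest subunit of the NADH-oxidising arm, read 11.65, 11.61, 11.54 and 11.57 in WSB/EiJ vehicle and 11.25 and 11.18 in treated animals 1 and 2, with 11.45 on the third array. Here all 3 treated arrays were below every vehicle array of the strain. The third array also lay within the NZW/LacJ vehicle range of 11.41 to 11.46. On that array a WSB/EiJ fall and an NZW/LacJ identity cannot be told apart for Ndufs1. The change was -0.37 ± 0.09 without the third array (adjusted p = 0.00188, limma) and -0.29 ± 0.08 with it.

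Ndufc1, a small accessory subunit, read 12.53, 12.51, 12.34 and 12.47 in WSB/EiJ vehicle and 12.04, 12.12 and 12.16 on the 3 treated arrays. The groups did not overlap, and the change was -0.36 ± 0.07 with all arrays (adjusted p = 0.000755, limma) and -0.38 ± 0.08 without the third. In NZW/LacJ its vehicle level was already low, at 11.96 to 12.13, so for this gene a WSB/EiJ fall and an NZW/LacJ identity of the third array cannot be told apart. Another Ndufc1 probe set gave -0.21 in WSB/EiJ and showed no low vehicle level in NZW/LacJ.

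**Figure D1:**
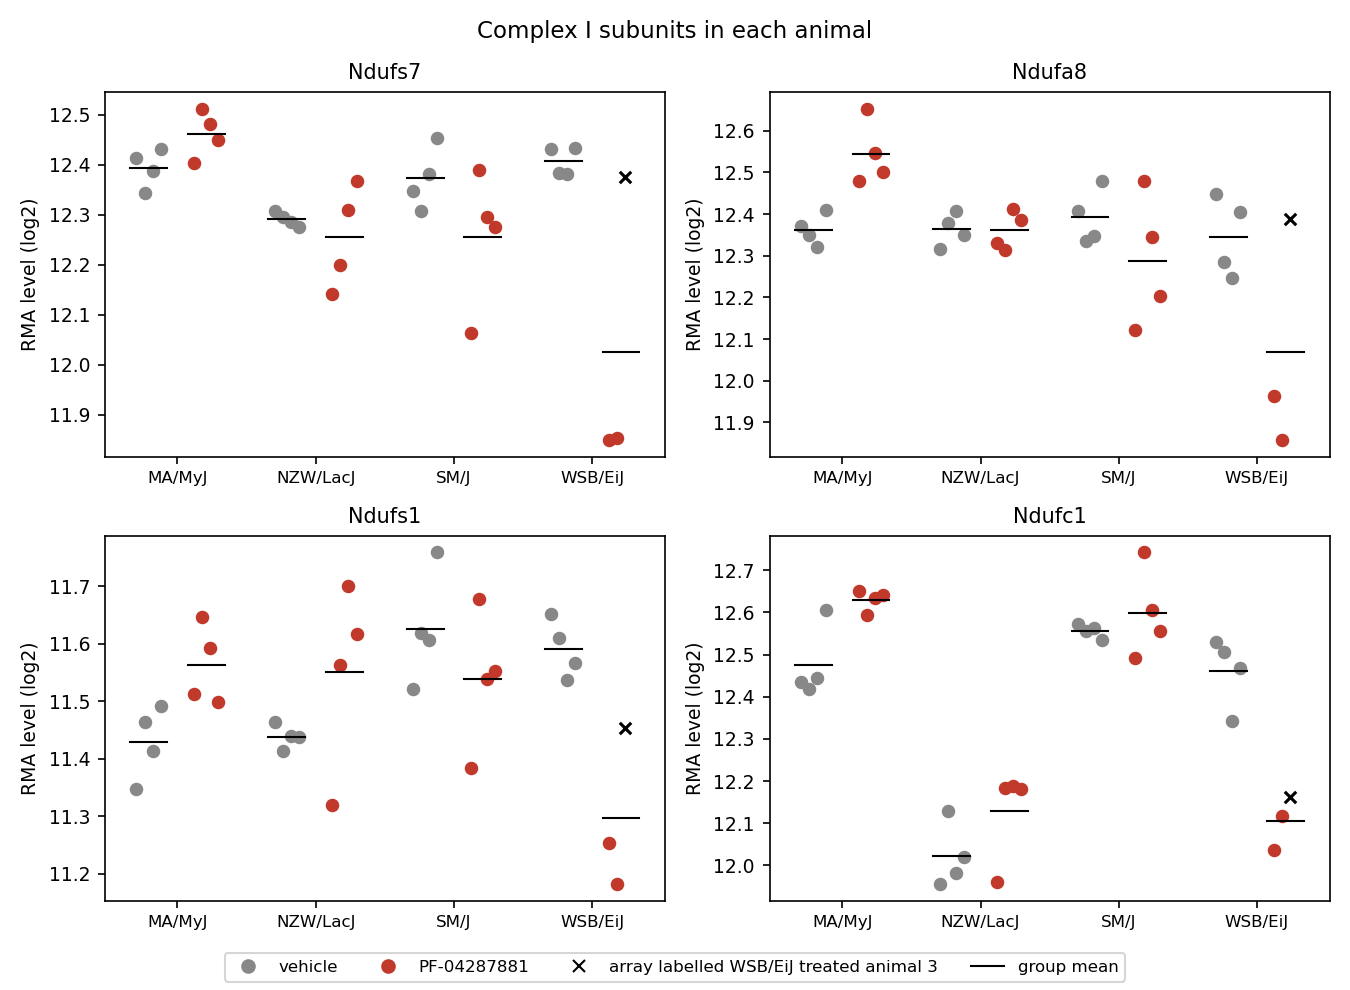
Levels of Ndufs7, Ndufa8, Ndufs1 and Ndufc1 in each animal (vertical axis, RMA level in log2 units; horizontal axis, strain), with vehicle in grey, PF-04287881 in red, the array labelled WSB/EiJ treated animal 3 as a cross and group means as lines. Ndufs7 lies at 11.85 in both accepted treated WSB/EiJ animals and at 12.38 to 12.43 in the vehicle animals.

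The other 9 complex I members called lower in WSB/EiJ without the doubtful array had smaller changes. Ndufa5, an accessory subunit, fell by 0.37 on the log2 scale, Ndufb10 by 0.34, Ndufv2, which carries an iron-sulphur cluster beside the NADH site, by 0.30, and Ndufb1 by 0.26. Ndufb6, Ndufb5, Ndufs3, Ndufb8 and Ndufb9 lay between -0.22 and -0.14. For 8 of the 16 members called in WSB/EiJ another bright probe set existed, and all 9 such probe sets changed in the same direction.

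Taken member by member within each animal, 29 and 30 of the 33 complex I members were below the strain's vehicle mean in treated WSB/EiJ animals 1 and 2. The median deviations were -0.12 and -0.21, against 0.07, -0.05, -0.08 and 0.07 in the 4 vehicle animals and 0.19 on the array labelled treated animal 3. The vehicle animals themselves were uneven, since animals 2 and 3 had 26 and 24 members below the mean. The share of all genes below that mean on each array was not counted. Whether these counts are particular to complex I therefore cannot be told. Within WSB/EiJ, RNA integrity moved along with the median deviations. The mean 3' to 5' difference was 2.52 and 2.4 in treated animals 1 and 2 and 1.58 on the third treated array. It was 1.78, 1.93, 2.20 and 1.75 in the vehicle animals. In the other strains the complex I medians of treated arrays were 0.04 to 0.08 (MA/MyJ), -0.06 to 0.09 (NZW/LacJ) and -0.06 to 0.12 (SM/J). The mean 3' to 5' difference on those arrays was 1.83 to 2.02, 1.73 to 2.14 and 1.56 to 2.09, in that order. With that difference as a covariate and without the third array, 5 members were called in WSB/EiJ against 15% of all genes, all of them lower and of complex I: Ndufs7 (-0.59 ± 0.10), Ndufa8 (-0.50 ± 0.11), Ndufs1, Ndufc1 and Ndufv2. Without the third array and the vehicle animals 1 and 2 that held muscle transcripts, 9 members fell, all of complex I, against 23.9% of all genes called.

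In complex II, succinate dehydrogenase, Sdhc, a membrane anchor that binds ubiquinone, was the only member called in any strain's drug comparison. It read 12.71, 12.65, 12.52 and 12.69 in WSB/EiJ vehicle, 12.43 and 12.47 in treated animals 1 and 2, and 12.87 on the array labelled treated animal 3. The first 2 were below every vehicle animal and the last above. Without that array the change was -0.19 ± 0.06 (adjusted p = 0.0192, limma), and with it -0.05 ± 0.08. The call was lost with the integrity covariate, at adjusted p = 0.149 by limma, and without WSB/EiJ vehicle animals 1 and 2, at adjusted p = 0.123 by limma. Sdhb, the iron-sulphur subunit, was not called in any strain, with changes between -0.06 and 0.18 with all arrays.

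In complex III, the cytochrome bc1 complex, none of the 8 members was called in any strain or on average over the strains, in limma with all arrays or without the doubtful one. At an unadjusted p under 0.05 in limma with all arrays the count was 1 in WSB/EiJ and 0 in each of the other strains. Without the doubtful array it was 4 in WSB/EiJ. The share of all genes at this looser threshold is not given here. In WSB/EiJ 19.3% of all genes passed the stricter adjusted threshold with all arrays, and 32.4% without the doubtful one. These counts are therefore not read as a result about complex III. Uqcrfs1, the Rieske iron-sulphur protein, read 13.07, 13.01, 13.07 and 13.01 in WSB/EiJ vehicle and 12.87, 12.89 and 13.02 on the treated arrays. Animals 1 and 2 were below the vehicle range, and the change of -0.16 ± 0.06 without the third array missed the threshold in limma (adjusted p = 0.054). The median change of the 8 members was -0.10 in WSB/EiJ without the third array, -0.01 in SM/J, -0.00399 in NZW/LacJ and 0.03 in MA/MyJ.

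**Figure D2:**
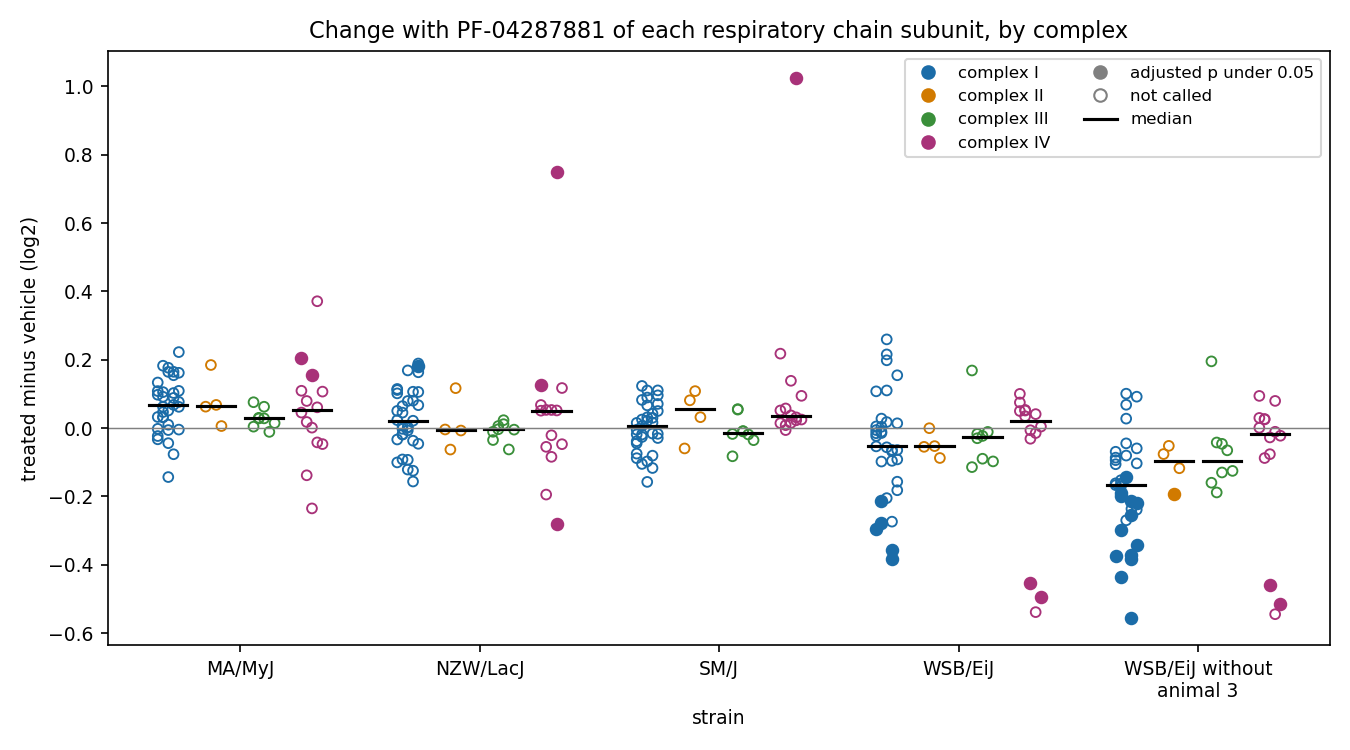
Treated minus vehicle (vertical axis, log2) for each of the 59 tested members in each strain with all arrays, and in WSB/EiJ without treated animal 3; colours give the complex, filled points passed the adjusted p of 0.05 and bars are medians. The complex I median lies at 0.07 in MA/MyJ and at -0.17 in the last column, and Cox7a1 stands apart at 0.75 in NZW/LacJ and 1.03 in SM/J.

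In complex IV, cytochrome c oxidase, the largest change belonged to Cox7a1, the heart and muscle isoform of subunit 7a. It read 5.31, 5.58, 5.21 and 5.32 in NZW/LacJ vehicle and 6.38, 6.28, 5.76 and 5.99 in treated animals. In SM/J it read 5.69, 5.46, 5.37 and 5.21 in vehicle and 6.98, 6.53, 6.58 and 5.74 after treatment. In both strains every treated animal was above every vehicle animal. The rise was 0.75 ± 0.20 in NZW/LacJ (adjusted p = 0.00904, limma) and 1.03 ± 0.20 in SM/J (adjusted p = 0.00629, limma).

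In MA/MyJ Cox7a1 read 5.83, 5.42, 5.81 and 5.82 in vehicle and 5.75, 6.40, 6.08 and 6.13 after treatment, and the groups overlapped through treated animal 1. In WSB/EiJ it read 6.22, 5.94, 5.36 and 5.69 in vehicle and 5.03, 5.48 and 5.27 on the treated arrays. The differences were 0.37 ± 0.20 and -0.54 ± 0.22, and neither was called in limma. These levels are close to the filter, which the gene passed only through 3 treated SM/J arrays, and without a filter it was still called in SM/J (adjusted p = 0.00742, limma) and NZW/LacJ (adjusted p = 0.0114, limma). With the integrity covariate and without WSB/EiJ treated animal 3 the SM/J rise was called (adjusted p = 0.0149, limma), against 2.99% of all genes, and the NZW/LacJ rise was not (adjusted p = 0.102, limma). Cox7a1 was the only member called in SM/J, 1 of 59 against 2.59% of all genes tested, or 4.65% without WSB/EiJ treated animal 3.

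The Cox7a1 window, chr7:30183921-30184220 on the plus strand, held none of the 4 motifs, and it is shown as the start of the member with the largest response.

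Cox7a1: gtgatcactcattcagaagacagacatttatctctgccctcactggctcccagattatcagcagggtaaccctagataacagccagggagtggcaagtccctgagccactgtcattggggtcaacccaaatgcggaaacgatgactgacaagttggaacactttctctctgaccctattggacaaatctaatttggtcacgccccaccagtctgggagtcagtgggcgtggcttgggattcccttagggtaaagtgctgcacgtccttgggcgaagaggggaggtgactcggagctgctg

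Among the other complex IV members, Cox6b1 and Cox5b rose in MA/MyJ and Cox4i1 rose in NZW/LacJ. Cox6b1, the ubiquitous form of subunit 6b at the dimer interface, read 13.44, 13.52, 13.55 and 13.51 in MA/MyJ vehicle and 13.73, 13.75, 13.65 and 13.71 after treatment. The groups did not overlap, and the rise was 0.21 ± 0.05 (adjusted p = 0.0183, limma); it was lost without vehicle animal 1 or treated animal 2. Cox5b, a subunit on the matrix side, rose by 0.16 ± 0.04 in MA/MyJ (adjusted p = 0.0432, limma), from 13.50 to 13.58 up to 13.61 to 13.74, and leaving out any of 14 single arrays ended that call. These were the only members called in MA/MyJ, 2 of 59 against 4.14% of all genes tested, or 7.3% without WSB/EiJ treated animal 3. Neither passed with the integrity covariate and without WSB/EiJ treated animal 3 (adjusted p = 0.125 and 0.286, limma), where 2.58% of all genes did.

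In NZW/LacJ 4 of 59 members were called with all arrays, 3 higher and 1 lower, against 21.5% of all genes tested, and 6 without WSB/EiJ treated animal 3, 3 in each direction, against 26.7%. Cox4i1, the common isoform of subunit 4, read 13.33, 13.37, 13.35 and 13.36 in vehicle and 13.46, 13.45, 13.53 and 13.48 after treatment, without overlap. Its rise was 0.13 ± 0.04 (adjusted p = 0.0374, limma). Ndufa6, a complex I accessory subunit, read 12.44, 12.49, 12.44 and 12.48 in vehicle and 12.67, 12.61, 12.79 and 12.52 after treatment, again without overlap, and rose by 0.18 ± 0.06 (adjusted p = 0.0425, limma). Each of these calls was lost on leaving out any of 7 of the 8 NZW/LacJ arrays.

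Cox8c, the testis isoform of subunit 8, read 9.15, 9.20, 9.25 and 9.09 in NZW/LacJ vehicle and 8.68, 9.18, 8.88 and 8.83 after treatment. Treated animal 2 lay within the vehicle range. The change was -0.28 ± 0.08 (adjusted p = 0.0139, limma) and its call was lost without treated animal 1. Ndufb5 and Ndufb9, accessory subunits of the membrane arm, were called lower in NZW/LacJ only without WSB/EiJ treated animal 3, at -0.16 ± 0.05 and -0.12 ± 0.04. With the integrity covariate as well, none of the 59 members was called in NZW/LacJ in limma, against 14.2% of all genes. The split of calls depended on scaling: with arrays centred on their medians 1 was higher and 3 lower, and with quantile normalization repeated 2 were higher and 3 lower.

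The muscle isoforms Cox6a2 and Cox8b were called lower in WSB/EiJ. Cox6a2 read 7.90, 8.07, 7.09 and 7.28 in vehicle and 7.19, 6.95 and 7.13 on the treated arrays. Cox8b read 6.96, 7.07, 6.54 and 6.40 in vehicle and 6.35, 6.22 and 6.30 on the treated arrays. For both genes the high values were those of vehicle animals 1 and 2, the animals with Acta1 at 10.4 and 10.1 and Ckm at 9.41 and 8.78.

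Cox8b passed the filter only through 3 WSB/EiJ vehicle arrays, the group where it is high, and without a filter its adjusted p by limma was 0.0363. The changes with all arrays were -0.49 ± 0.15 for Cox6a2 (adjusted p = 0.0181, limma) and -0.45 ± 0.14 for Cox8b (adjusted p = 0.0283, limma). Without vehicle animals 1 and 2 and treated animal 3 they were -0.11 ± 0.11 and -0.19 ± 0.16, with adjusted p = 0.5 and 0.451 by limma. Of the 6 defining muscle fibre genes, 3 passed the filter, and the mean log2 level of all 6 ran from 5.75 to 7.73 in WSB/EiJ vehicle and from 5.76 to 6.02 in every other group, treated WSB/EiJ included. Cox7a1 in WSB/EiJ vehicle was also higher in animals 1 and 2 than in animals 3 and 4.

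**Figure D3:**
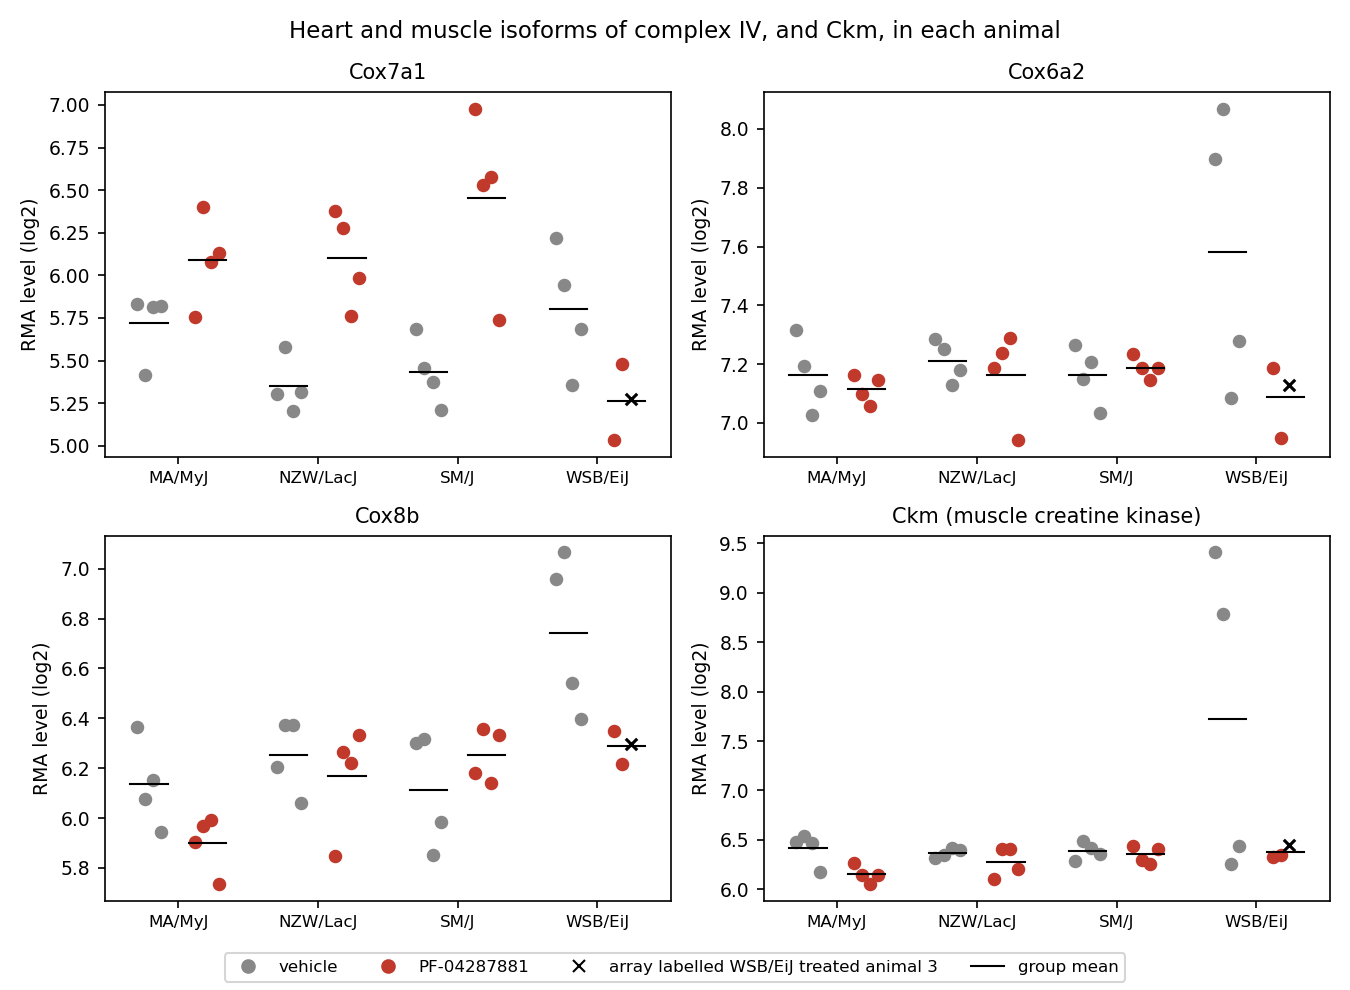
Levels of Cox7a1, Cox6a2, Cox8b and the muscle creatine kinase Ckm in each animal (vertical axis, RMA level in log2 units; horizontal axis, strain), with symbols for vehicle, PF-04287881, the array labelled WSB/EiJ treated animal 3 and group means. Cox6a2, Cox8b and Ckm are high in the same 2 WSB/EiJ vehicle animals, while Cox7a1 is high in treated SM/J animals at 5.74 to 6.98.

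Averaged over the 4 strains, 5 members rose and 2 fell with all arrays, 7 of 59 against 22.2% of all genes tested. All 5 were complex IV subunits: Cox7a1 (0.40 ± 0.10), Cox7a2l (0.12 ± 0.04), a factor that joins complexes III and IV, Cox7a2 (0.08 ± 0.03), the liver isoform of subunit 7a, Cox6b1 (0.08 ± 0.03) and Cox4i1 (0.07 ± 0.02). The 2 that fell were of complex I, Ndufb5 (-0.10 ± 0.03) and Ndufb9 (-0.08 ± 0.03). Cox7a1 was tested only because of 3 treated SM/J arrays and lay below the filter level on every other array. Without WSB/EiJ treated animal 3, 9 of 59 were called against 32.7%: the same 7, and Ndufs7 and Ndufb8 lower. The call of Cox7a2l there, at adjusted p = 0.0436 by limma, was lost on leaving out any of 18 single arrays, whereas with all arrays no single array ended it. The calls of Ndufb5 and Ndufb9 with all arrays were lost without WSB/EiJ treated animal 1 or 2. With arrays centred on their medians 1 member was higher and 4 were lower, and with quantile normalization repeated 4 and 3, and with the integrity covariate and without that array none was called in limma, against 6.01% of all genes.

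The change with PF-04287881 differed between strains for 5 members with all arrays and for 10 without WSB/EiJ treated animal 3, by limma's F test for unequal effects, against 19.4% and 32.4% of all genes tested. The adjusted p of this test, with all arrays and without the doubtful array, was 0.00218 and 0.00304 for Cox7a1, 0.00115 and 0.000948 for Ndufc1, 0.0178 and 0.00353 for Ndufs1, and 0.0484 and 0.000127 for Ndufs7. Set directly against each other, the NZW/LacJ change exceeded the WSB/EiJ change for 5 members and fell short for none with all arrays, against 24.1% of all genes tested; under either scaling alternative (centring or repeated quantile normalization) it was higher for 4 and lower for 1. Without the doubtful array it exceeded it for 12 and fell short for 1, Cox8c, against 33%. The differences were 1.29 ± 0.30 for Cox7a1, 0.46 ± 0.10 for Ndufc1, 0.41 ± 0.11 for Ndufs1 and 0.35 ± 0.12 for Ndufs7 with all arrays. The call of Ndufs7 was lost on leaving out any of 11 single arrays, and without the doubtful array on leaving out none. Cox7a1 entered these tests only through 3 treated SM/J arrays, and its level lay under the filter on all others. With the integrity covariate and without that array, 10 and 13 members passed these tests, against 31.7% and 33.7% of all genes.

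In vehicle livers the strains differed in 26 of 59 members by limma's F test, against 56.5% of all genes tested, and in 29 against 63% without WSB/EiJ treated animal 3, which enters only through the spread. A difference in transcript level and a difference in sequence under the probes cannot be told apart between strains. The span from the lowest to the highest strain mean had a median of 0.20 over the 59 members. WSB/EiJ was the lowest strain for 29 members, 21 of them in complex I. The share of all genes with WSB/EiJ lowest was not counted. Whether this is particular to the members therefore cannot be told. Where called members had other bright probe sets, 12 of 27 of these placed the same strain highest and the same strain lowest.

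Cox6b2, the testis isoform of subunit 6b, had by far the widest span. It read 11.36, 11.22, 11.31 and 11.37 in MA/MyJ vehicle and 11.20, 11.17, 11.27 and 11.06 in treated MA/MyJ animals, while all 23 arrays of the other strains lay between 5.60 and 6.80. The ranges were far apart. MA/MyJ vehicle exceeded the mean of the other 3 strains by 5.21 ± 0.12 (adjusted p = 2.00e-22, limma), about 37.1-fold, the largest absolute difference among all 12890 genes tested. The other strains' signal was near or below the filter level, so the fold is set by what these arrays read there. Cox6b2 was tested almost only because of its level in MA/MyJ, the strain where it is high. Its p-value and rank in this comparison are not given without a filter. Treatment did not pass in any strain, with a change of -0.14 ± 0.14 in MA/MyJ. Only 1 probe set read Cox6b2. Its RefSeq window, chr7:4753045-4753344 on the minus strand, is shown as the start of the member that differs most between strains, and it held none of the 4 motifs.

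Cox6b2: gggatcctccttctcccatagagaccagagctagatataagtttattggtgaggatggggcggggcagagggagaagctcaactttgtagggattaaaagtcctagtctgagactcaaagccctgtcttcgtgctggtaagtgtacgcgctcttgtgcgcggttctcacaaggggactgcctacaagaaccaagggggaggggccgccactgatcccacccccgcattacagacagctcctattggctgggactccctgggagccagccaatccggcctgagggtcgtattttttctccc

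Of the next widest spans, those of Ndufa12, Ndufs4 and Ndufa7 belonged to complex I and that of Cox8b, at 0.627, to complex IV. Ndufa12, a relative of the assembly factor Ndufaf2, read 13.13 to 13.27 in MA/MyJ vehicle, 12.75 to 12.77 in NZW/LacJ, 12.54 to 12.66 in WSB/EiJ and 12.05 to 12.22 in SM/J, 4 ranges that did not overlap. MA/MyJ was 0.71 ± 0.05 above and SM/J 0.70 ± 0.05 below the mean of the other strains. Another Ndufa12 probe set spread less, with vehicle means of 12.12 in WSB/EiJ, 12.07 in MA/MyJ, 11.92 in SM/J and 11.63 in NZW/LacJ, and so gave another order.

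Ndufs4, a subunit needed for a stable NADH-oxidising arm, read 10.35, 10.13, 10.12 and 10.32 in WSB/EiJ vehicle and 10.77 to 11.12 in the vehicle animals of the other strains. WSB/EiJ was lower by 0.71 ± 0.10 (adjusted p = 3.28e-06, limma). The array labelled WSB/EiJ treated animal 3 read 10.97, with the other strains, and treated animals 1 and 2 read 10.30 and 10.07. Of the other Ndufs4 probe sets above the filter, 1 also had WSB/EiJ lowest, at 8.11 against 8.46 to 8.64, and 1 had it highest, at 7.54 against 6.32 to 7.28. That last probe set changed by -2.12 with treatment in WSB/EiJ without treated animal 3, whereas the brightest changed by -0.04.

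Ndufa7, another accessory subunit, read between 11.88 and 12.27 in WSB/EiJ vehicle and 12.75 to 12.99 in SM/J vehicle, with MA/MyJ and NZW/LacJ between them at 12.49 to 12.64. WSB/EiJ was lower by 0.57 ± 0.08 and SM/J higher by 0.44 ± 0.08, both called in limma. All 3 of its other probe sets had WSB/EiJ lowest, and 2 of them had SM/J highest. Ndufc1 was lower in NZW/LacJ by 0.48 ± 0.05, from 11.96 to 12.13 there against 12.34 to 12.61 in the other vehicle animals. Ndufa4l2, a paralogue of Ndufa4, was higher in SM/J by 0.37 ± 0.11 and lower in WSB/EiJ by 0.35 ± 0.11.

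**Figure D4:**
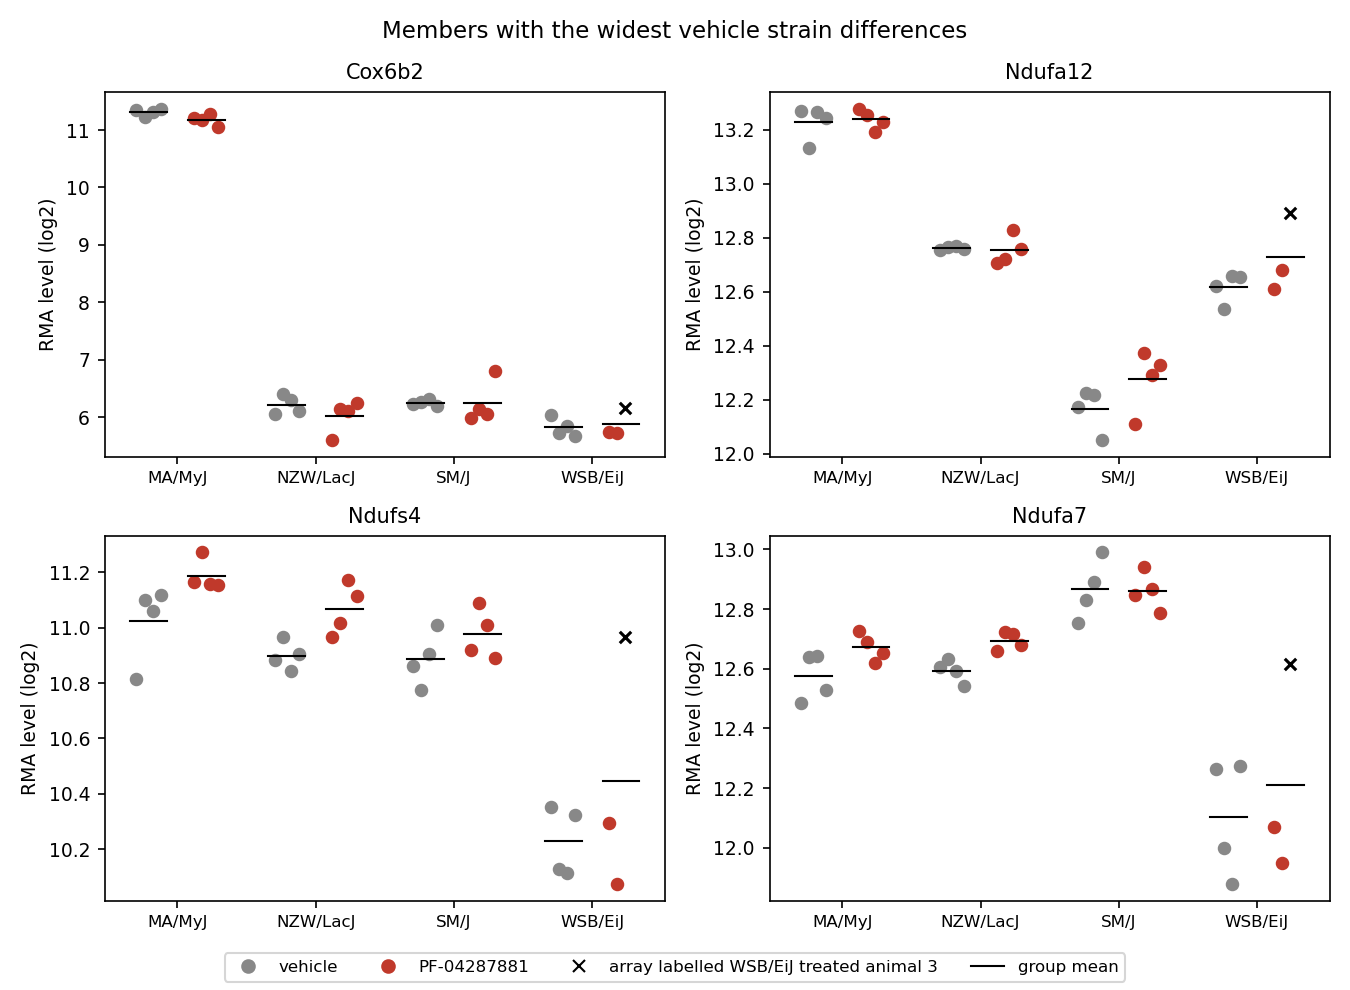
Levels of Cox6b2, Ndufa12, Ndufs4 and Ndufa7 in each animal (vertical axis, RMA level in log2 units; horizontal axis, strain), with symbols for vehicle, PF-04287881, the array labelled WSB/EiJ treated animal 3 and group means. Cox6b2 lies at 11.06 to 11.37 in MA/MyJ and at 5.60 to 6.80 elsewhere, and the cross for Ndufs4 lies at 10.97, away from the other WSB/EiJ arrays.

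Set against the mean of the other strains, 10 members were higher and none lower in MA/MyJ vehicle, against 20.2% of all genes called. Without WSB/EiJ treated animal 3 the count was 11 against 25.8%. These counts use the brightest probe set of each gene. That of Uqcr10 had MA/MyJ highest, at 12.67 against 12.34 to 12.44. Its other probe sets above the filter had MA/MyJ lowest, at 7.40 and 7.05 against 10.26 to 10.83 in the other strains. NZW/LacJ and SM/J each had 3 higher and 3 lower, against 28.6% and 20.7%, and 9 and 11 called without that array, against 34.2% and 26.9%. WSB/EiJ had 2 higher and 18 lower, against 38.4% of all genes called and 17.7% called lower, and 21 called without that array against 43.4%. The 2 higher were the muscle isoforms Cox6a2 and Cox8b, of which Cox8b was tested only because of its level in this group. Of the 18 lower, 13 belonged to complex I. Leaving out both treated animal 3 and vehicle animal 4 of WSB/EiJ gave 3 higher and 23 lower. The share of all genes in that fit is not given here. With quantile normalization repeated MA/MyJ had 9 higher and 2 lower and SM/J 3 higher and 5 lower. With arrays centred on their medians the WSB/EiJ split was 3 higher and 11 lower, and with quantile normalization repeated 5 and 14. Without vehicle animals 1 and 2 and treated animal 3 of that strain 13 members were called against 28% of all genes, and with the integrity covariate and without that array 11 against 19.4%. Cox6b2 counts as lower in each of the other strains because MA/MyJ enters their reference mean, and it was tested almost only because of its level in MA/MyJ.

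Genes that build the complexes are set beside the subunits, against a median change of 0.02 over all genes in both WSB/EiJ and NZW/LacJ. Complex I assembly factors, which dock or modify subunits and are absent from the finished enzyme, were called lower in WSB/EiJ for 10 of 15 with all arrays, with a median of -0.47, and for 9 of 15 without treated animal 3, with 2 higher and a median of -0.51. Of all genes tested, 12.4% and 18.6% were called lower in these fits. Without that array Tmem126b changed by -1.53 ± 0.24, Ndufaf3 by -1.36 ± 0.12 and Acad9, which also has fatty acid dehydrogenase activity, by -1.07 ± 0.25. In NZW/LacJ 3 of the 15 were called higher with all arrays and 6 without it, with none lower, against 21.5% and 26.7% of all genes called. The median there was 0.25, and Acad9 rose by 0.63 ± 0.20. None of the 15 was called in MA/MyJ or SM/J in limma. The NZW/LacJ change exceeded the WSB/EiJ change for 10 of 15 with all arrays and for 12 without that array, with 1 in the opposite direction. This comparison called 24.1% and 33% of all genes tested in these fits. Whether factors differ from subunits was not tested.

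Complex IV assembly factors went both ways. In NZW/LacJ 7 of 21 were higher and 2 lower with all arrays, where 21.5% of all genes were called. In WSB/EiJ 3 were higher and 5 lower with all arrays, and 4 higher and 11 lower without treated animal 3, against 19.3% and 32.4% of all genes called. Without that array Cox20, a chaperone of subunit 2, rose by 0.48 ± 0.10 in NZW/LacJ and changed by -1.05 ± 0.12 in WSB/EiJ. Surf1, a factor for haem insertion, changed by -0.94 ± 0.11 and Cox10, which makes haem a's precursor, by 0.80 ± 0.17 in WSB/EiJ. Sco2, a copper chaperone, fell by 0.89 ± 0.12 on the log2 scale in NZW/LacJ and by 0.50 ± 0.12 in SM/J. All 4 complex II assembly factors were lower in WSB/EiJ without that array, led by Sdhaf4 at -0.77 ± 0.14, and 2 of 5 complex III factors were lower, where 18.6% of all genes were called lower.

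**Figure D5:**
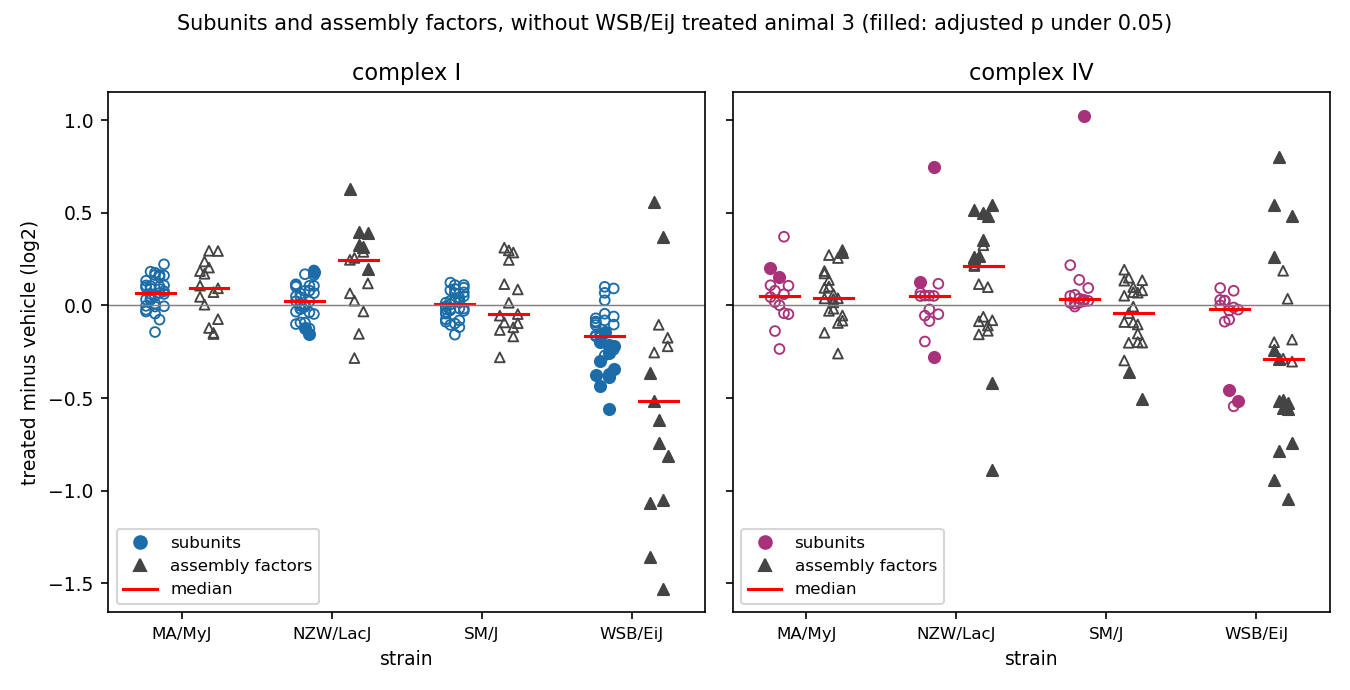
Treated minus vehicle (vertical axis, log2) in each strain for the subunits (circles) and the assembly factors (triangles) of complexes I and IV, without WSB/EiJ treated animal 3; filled symbols passed the adjusted p of 0.05 and red bars are medians. In WSB/EiJ the median is -0.17 for complex I subunits and -0.51 for complex I assembly factors.

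The remaining mitochondrial lists are given without WSB/EiJ treated animal 3, where 32.4% of all genes were called in WSB/EiJ and 18.6% were called lower. Of 15 ATP synthase genes, 1 was higher and 4 were lower in WSB/EiJ, with Atp5j2 at -0.31 ± 0.08 and the inhibitor Atpif1 at 0.33 ± 0.13. Of 3 respiratory chain genes outside the name rule, Ndufab1, the mitochondrial acyl carrier protein and a complex I subunit, changed by -0.44 ± 0.09 and Cycs, cytochrome c, by -0.45 ± 0.12. Of 7 genes for uncoupling or other entry of electrons to ubiquinone, 5 were lower in WSB/EiJ, including glycerol-3-phosphate dehydrogenase Gpd2 at -1.71 ± 0.20, which also changed by -1.14 ± 0.16 in NZW/LacJ. Of 12 tricarboxylic acid cycle genes, 2 were higher and 5 lower in WSB/EiJ, and of 13 genes of the outer membrane and import, 3 were higher and 3 lower.

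Regulators of these genes were called in both directions in WSB/EiJ, 6 higher and 6 lower of 20, against 32.4% of all genes called. Ppargc1b, a coactivator of mitochondrial genes, rose by 2.12 ± 0.35, the corepressor Nrip1 by 0.98 ± 0.18 and the receptor Esrra by 0.81 ± 0.23, while Mterf2, a mitochondrial transcription factor, changed by -0.97 ± 0.23. In NZW/LacJ Mterf2 rose by 1.51 ± 0.19 and in MA/MyJ by 0.91 ± 0.19. The subunits encoded by mitochondrial DNA were not analysed here.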

How the data were processed

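Per the submitters' processing notes, the deposited values were made with Affymetrix Power Tools and RMA, so the authors' values are log2 intensities per probe set, corrected for background, normalized by quantiles and summarised; versions and a genome build are not given in the sources used here. RMA's quantile step removes a shift shared by all probe sets. Values were used as deposited. Of 44721 probe sets, 34728 carried 1 symbol, and the set with the highest mean represented each gene. Genes above the median of all values, 6.49, on at least 3 arrays were tested. Group means of all 31 arrays were fitted with limma 3.58.1 in R 4.3.3 (eBayes, two-sided, adjusted p under 0.05). Figures were drawn with matplotlib 3.10.9. Tested on simulated data, the average over strains recovered 66 of 100 changes of 0.3 and 100 of 100 changes of 1, the WSB/EiJ comparison 15 and 87, and NZW/LacJ against WSB/EiJ 4 and 79. False calls were 5.14%, 4.67% and 10.8% of the calls in these comparisons, 8.73% in NZW/LacJ and 9.32% in the vehicle F test. The simulated spread left out the deviations of WSB/EiJ treated animal 3, while all 31 arrays were simulated and fitted, with independent noise. Whether these rates hold for the fits to the real arrays, with or without WSB/EiJ treated animal 3, was not tested.

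Members and gene lists were chosen with earlier results of these data known. Members were named by rule: the largest called changes per direction and comparison, 1 per complex on average, and the widest vehicle differences; other members were named after their values were seen. Alternatives covered filters, scaling, probe sets, the fit, single arrays, RNA integrity and muscle transcripts; the last 2, and 1 fit on the compared groups alone, were chosen after seeing the data. Numbers of animals did not pair them. The p-values set each difference against the spread between animals within groups, taken over all groups in the fit. The number of arrays limits the precision.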

Additional observations from a re-analysis of the deposited data

Results flagged for a closer look

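In 168 sets of 4 animals (named members by group), 5 had an animal set apart from the other 3 by Dixon's test, and chance sets about 1 in 20 apart. Cox7a1 in MA/MyJ vehicle animal 2 read 5.42 against 5.81 to 5.83. Cox7a2 in SM/J treated animal 4 read 13.5 against 13.7 in the others. Ndufc1 in MA/MyJ vehicle animal 4 read 12.6 against 12.4, and in NZW/LacJ treated animal 1 it read 11.96 against 12.2. Ndufs4 in MA/MyJ treated animal 2 read 11.3 against 11.2.

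The effect of PF-04287881 differed between strains by limma's F test for the following named members. With all arrays the adjusted p was 0.00218 for Cox7a1, 0.0484 for Ndufs7, 0.00115 for Ndufc1 and 0.0178 for Ndufs1. Without WSB/EiJ treated animal 3 it was 0.00304 for Cox7a1, 0.000127 for Ndufs7, 0.000948 for Ndufc1, 0.00353 for Ndufs1, 0.0141 for Sdhc and 0.0142 for Ndufb10, all by limma. In the complex I members and Sdhc the WSB/EiJ change was negative, and in Cox7a1 the NZW/LacJ and SM/J changes were positive. Cox7a1 was tested only because of 3 treated SM/J arrays.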

How the results depend on the processing

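Counts of called members moved by over 1.5 times as follows, and the causes were not tested unless fewer samples or genes are named. Leaving out the array labelled WSB/EiJ treated animal 3 gave 16 calls in WSB/EiJ, 10 for unequal effects, 13 for NZW/LacJ against WSB/EiJ and 11 for SM/J vehicle. Leaving out WSB/EiJ control animal 4 as well gave 13, 11, 13, 10 for NZW/LacJ vehicle and 12 for SM/J vehicle. A replicate block gave 1 in MA/MyJ, 2 in NZW/LacJ and 3 for unequal effects; correlations of same-numbered animals were over 0.1 in 4 of 15 cases and 3 of 15 correlated best with their own number, so the numbers were not taken as pairs. No filter on dim genes gave the same 1, 2 and 3, and a stricter filter 0 in SM/J, since Cox7a1 was not kept. Repeated quantile normalization gave 10 for NZW/LacJ vehicle, and arrays centred on their medians 0 in MA/MyJ and 2 for unequal effects. The mean of all probe sets gave 1 in MA/MyJ, 2 in SM/J and 14 for NZW/LacJ vehicle, and trended, robust variance 8 for unequal effects. Array weights gave 22 in WSB/EiJ, 8 in SM/J, 9 in NZW/LacJ, 8 in MA/MyJ, 15 on average, 20 for unequal effects, 23 for NZW/LacJ against WSB/EiJ, and 19, 22 and 16 for MA/MyJ, NZW/LacJ and SM/J vehicle. Fitting only the groups compared gave 0 in MA/MyJ, 2 in NZW/LacJ, 0 in WSB/EiJ and 3 for the difference of the last 2. Updated symbols moved no count.

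Chosen after seeing the data, the 3' to 5' covariate gave 1 in MA/MyJ, 10 in NZW/LacJ, 8 for NZW/LacJ against WSB/EiJ and 5 for WSB/EiJ vehicle. With WSB/EiJ treated animal 3 left out too it gave 0 in MA/MyJ, 0 in NZW/LacJ, 0 on average, 10 for unequal effects, 13 for NZW/LacJ against WSB/EiJ and 11 for WSB/EiJ vehicle, and the average change of Cox7a2l turned to -0.015. Only the groups compared and no WSB/EiJ treated animal 3 gave 1 in WSB/EiJ and 8 for NZW/LacJ against WSB/EiJ. Without WSB/EiJ control animals 1 and 2 the counts were 1 in MA/MyJ, 2 in WSB/EiJ, 2 for unequal effects and 9 for WSB/EiJ vehicle; without treated animal 3 as well, 9 for unequal effects, 8 for NZW/LacJ against WSB/EiJ, and 10 and 13 for SM/J and WSB/EiJ vehicle. Leaving out single arrays gave 2 to 16 in WSB/EiJ, 1 to 1 in SM/J, 1 to 6 in NZW/LacJ, 0 to 2 in MA/MyJ, 6 to 9 on average, 3 to 10 for unequal effects, 4 to 13 for NZW/LacJ against WSB/EiJ, 20 to 29 for the vehicle F test, and for vehicle levels 11 to 21 in WSB/EiJ, 5 to 11 in SM/J, 5 to 9 in NZW/LacJ and 8 to 11 in MA/MyJ.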

Other observations

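The high Cox6b2 signal of MA/MyJ was not shared by most genes beside it on chromosome 7. In vehicle livers Isoc2b was 1.02 higher in MA/MyJ than in the mean of the other strains, Kmt5c, the direct neighbour, 0.39 higher and Tmem238 0.36 higher, all called in limma. Differences of the other tested neighbours lay between -0.08 and 0.18 and were not called: Syt5, Tmem86b, Ppp6r1, Hspbp1, Tmem150b, Tmem190, Ube2s and Shisa7.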
